A study of Homo sapiens with 288 samples.

Results

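The genes described here carry glucose from the medium to lactate. They are the glucose transporters SLC2A1 and SLC2A3, the hexokinases HK1 and HK2, the platelet-type phosphofructokinase PFKP, and the enzymes ALDOA, PGK1, ENO1, PKM and LDHA. They were chosen by symbol, as 10 of the 17492 protein-coding genes in the deposited tables, and all 10 were found. Levels are given in CPM, the count of a gene in a cell scaled to a total of 1000000 counts in that cell.

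Glycolysis splits glucose into pyruvate in the cytosol and yields ATP without oxygen. Glucose enters through facilitative transporters of the SLC2A family, is trapped by hexokinase as glucose 6-phosphate, and is committed to the pathway by phosphofructokinase. Lactate dehydrogenase then turns pyruvate into lactate and regenerates the NAD+ that the pathway uses. Endothelial cells are known for a strong reliance on glycolysis, and the trophoblast of the placenta is known for a large uptake of glucose.

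The cells were 45 endothelial cells (EC) and 51 trophoblast-like cells (TB), both derived from H1, an established human embryonic stem cell line. EC were grown in E8 medium with BMP4 at 5 ng/ml and Activin A at 25 ng/ml for 2 days, followed by 3 days with VEGF and WNT. TB were grown in E7 medium, which is E8 without FGF2, with BMP4 at 50 ng/ml and the inhibitor SB431542. Each cell was captured on the Fluidigm C1, a microfluidic device that lyses single cells and amplifies their full-length cDNA. The stored cDNA of the same 96 cells was brought to 0.1 ng and sequenced in 3 experiments. In EQ and EQ-75% the libraries were pooled at 2.0 µL each, and in EQ-Vary at volumes made variable on purpose. No separate cultures are named, so EC and TB are 1 sample each, SDs are between cells, and no test between the cell types was possible. The culture medium, the culture and the cell type differed together and cannot be told apart. The 3 experiments share their cells and are not independent of each other. EQ is described unless another experiment is named.

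In EQ, 38 EC and 48 TB cells passed, with a log10 total count of at least 5.4 and no more than 31% of their counts in the top 50 genes. Their median total counts were 2025145 in EC and 1968545 in TB, with a range from 365570 to 3966801 over both types. The EC label went with its markers: 12 of 15 endothelial genes reached a mean of 10 CPM over both types and all 12 were at least 2-fold higher in EC, with a summed level of 577 to 8715 CPM in EC cells and 3.43 to 94.4 CPM in TB cells. Of the 13 trophoblast genes, 10 reached 10 CPM and 8 were at least 2-fold higher in TB, with sums of 2766 to 18593 CPM in TB and 114 to 3967 CPM in EC. GATA3 (120 CPM in EC and 236 CPM in TB) and GATA2 (65.7 and 38.2 CPM) were under 2-fold, and GATA2 was the higher in EC. KRT7 was low in TB, at a mean of 25.3 CPM, and CGA, TP63 and ELF5 did not reach 10 CPM. TB also had more RNA of 6 of the 8 mesenchymal genes that reached 10 CPM, among them the collagen COL3A1 (735 CPM against 2.41 CPM in EC) and the matrix protein LUM (3042 CPM against 10.2 CPM). The collagen COL1A2 was at least 2-fold higher in EC instead, at 840 CPM against 294 CPM in TB. The summed mesenchymal level was 861 to 11123 CPM in TB cells and 22.4 to 3693 CPM in EC cells. Its part in the differences below was not tested. Pluripotency genes were present in both types, with 3 of the 5 that reached 10 CPM at least 2-fold higher in EC and 1 in TB, and sums of 113 to 2756 CPM in EC and 75.8 to 1159 CPM in TB.

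Promoter sequences are shown for LDHA and SLC2A1, which had the largest EC to TB ratios, for PGK1, which had the most motif matches after LDHA, and for PFKP, the member that was higher in TB. The windows are from RefSeq on GRCh38.p14 and run from 250 bases before to 50 bases after a start site, printed 5′ to 3′ on the gene's strand. Capitals mark ACGTG or GCGTG, the 5-base core that hypoxia-inducible factors bind, on either strand, so that CACGT and CACGC are the reverse complements. Where matches on both strands overlap they form 1 run of capitals.
LDHA (chr11:18394313-18394612, plus strand): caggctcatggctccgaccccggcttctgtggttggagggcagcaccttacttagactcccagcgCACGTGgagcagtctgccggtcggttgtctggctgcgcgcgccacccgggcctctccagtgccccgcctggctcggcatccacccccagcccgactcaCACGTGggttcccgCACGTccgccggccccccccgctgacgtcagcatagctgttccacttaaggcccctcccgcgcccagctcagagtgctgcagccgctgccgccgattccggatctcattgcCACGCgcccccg
PGK1 (chrX:78103998-78104297, plus strand): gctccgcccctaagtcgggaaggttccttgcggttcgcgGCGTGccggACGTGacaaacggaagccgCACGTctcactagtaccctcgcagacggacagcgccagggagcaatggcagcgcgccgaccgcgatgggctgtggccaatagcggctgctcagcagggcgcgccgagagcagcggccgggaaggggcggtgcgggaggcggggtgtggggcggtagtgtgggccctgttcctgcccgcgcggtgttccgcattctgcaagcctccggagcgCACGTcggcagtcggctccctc
SLC2A1 (chr1:42958819-42959118, minus strand): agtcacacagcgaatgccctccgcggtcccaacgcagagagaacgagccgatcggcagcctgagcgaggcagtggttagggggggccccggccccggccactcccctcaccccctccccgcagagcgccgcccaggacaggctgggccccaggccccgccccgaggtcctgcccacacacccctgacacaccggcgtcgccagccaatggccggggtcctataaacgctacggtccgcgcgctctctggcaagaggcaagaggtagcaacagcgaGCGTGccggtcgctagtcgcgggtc
PFKP (chr10:3067720-3068019, plus strand): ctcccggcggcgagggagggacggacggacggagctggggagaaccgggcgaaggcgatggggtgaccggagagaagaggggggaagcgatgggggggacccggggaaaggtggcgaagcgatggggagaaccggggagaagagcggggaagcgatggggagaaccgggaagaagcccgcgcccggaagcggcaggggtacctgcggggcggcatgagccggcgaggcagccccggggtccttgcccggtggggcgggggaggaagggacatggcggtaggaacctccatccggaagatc
A window was found for 9 of the 10 members, and 8 of these 9 held at least 1 of the 2 motifs, against 48.4% of all 35116 windows. ACGTG alone was found in 4 of the 9, LDHA, PGK1, HK2 and ALDOA, against 21.4% of all windows. LDHA had 6 matches, PGK1 had 4, HK2 had 3 and ENO1 had 2. Matches were counted on each strand, so each CACGTG in LDHA counts as 2. In runs of capitals, the LDHA window holds as many as that of PGK1. SLC2A1, HK1, ALDOA and PKM had 1 each, and PFKP had 0. The windows printed for PFKP and counted for HK1 lie 422 and 217 bases from the canonical start of their gene. A match is only a run of letters, and binding was not measured in these cells.

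Across the pathway, 8 of the 10 members were at least 2-fold higher in EC by their mean CPM, 1 was at least 2-fold higher in TB, and HK1 was at the same mean level in both. The ratio was taken between means with 1 CPM added to each. Among 8871 genes that reached 10 CPM on average over both types, 16.3% were at least 2-fold higher in EC and 20.7% in TB. The median log2 ratio of EC to TB was 1.88 over the members and -0.03 over all 8871 genes. Summed over the 10 members, an EC cell held 6438 to 31752 CPM with a median of 14228 CPM, and a TB cell 747 to 10397 CPM with a median of 2983 CPM. Some TB cells therefore held more of this RNA than some EC cells. CPM are shares of a cell's mRNA, so a higher level per cell and a smaller share of other mRNA cannot be told apart.

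**Figure D1:**
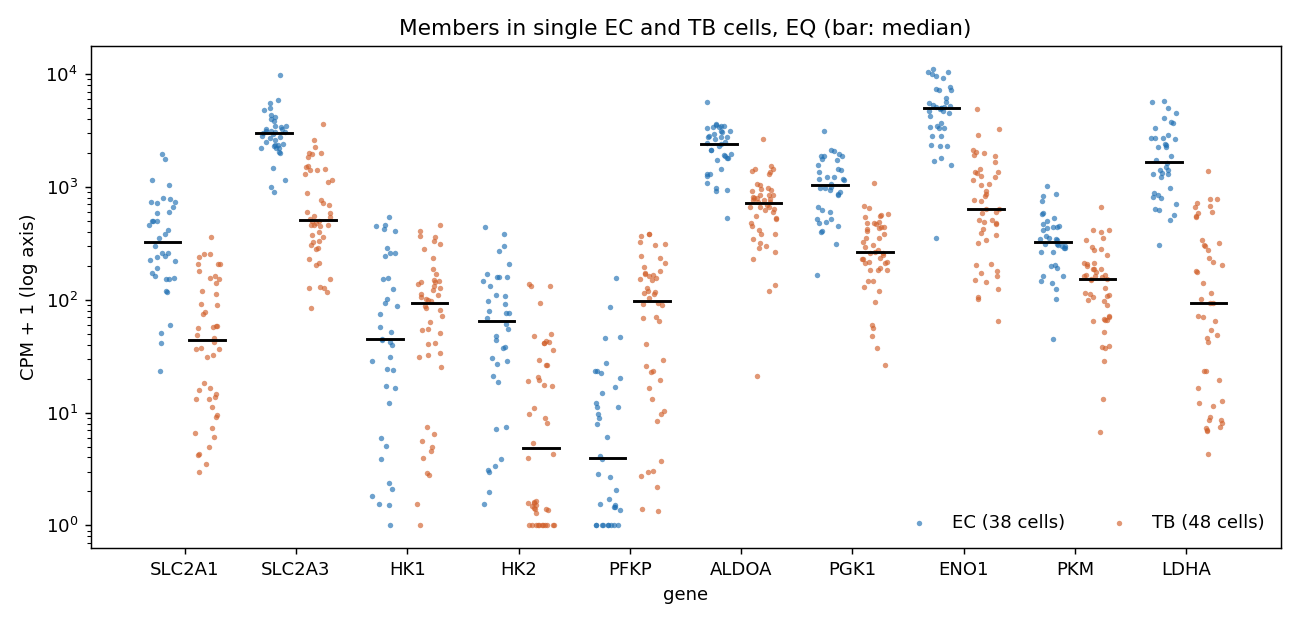
Level of each member in every passing EQ cell, as CPM + 1 on a log axis, for 38 EC (blue) and 48 TB (orange) cells, with a black bar at the median. LDHA was the best separated, with 36 TB cells below the lowest EC cell, HK1 spanned the same range in both types, and PFKP was the member with its median higher in TB by the widest margin.

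SLC2A1, the ubiquitous basal glucose transporter (chromosome 1, 42925353 to 42958893, minus strand, coordinates here and below from GENCODE v44 on GRCh38), ranged in EC from 22.4 to 1956 CPM with a median of 327 CPM, and in TB from 1.98 to 358 CPM with a median of 43.4 CPM. The highest TB cell was exceeded by 18 of the 38 EC cells, and 36 EC cells were above the TB median. The means were 468 ± 439 CPM in EC (SD, n = 38 cells) and 78.3 ± 86.6 CPM in TB (SD, n = 48 cells), a 5.98-fold ratio. SLC2A3, a high-affinity transporter (chromosome 12, 7919230 to 8019007, minus strand), ranged from 911 to 9939 CPM in EC, with a median of 2995 CPM, and from 83.0 to 3643 CPM in TB, with a median of 513 CPM. All 38 EC cells were above the TB median, 9 were above the highest TB cell, and 33 TB cells were below the lowest EC cell. Its mean was 3185 ± 1604 CPM in EC and 841 ± 771 CPM in TB, 3.78-fold apart.

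SLC2A3 is nearly identical to its neighbour SLC2A14, another hexose transporter, and 100% of the deposited SLC2A3 values were not whole numbers, which is the mark of reads that were divided between genes. SLC2A14 was given 17.7 CPM in EC and 4.84 CPM in TB. It took 0.553% of the sum of both genes in EC and 0.572% in TB, and the log2 ratio of that sum was 1.92, as for SLC2A3 alone. Adding back so small a share could not move the ratio. The sum therefore describes both genes together and does not show whether the reads were divided correctly between them. The other members had values that were not whole too. By cell type, they made up 89.6% to 100% of the values above 0 for PGK1, ALDOA, ENO1 and LDHA, 60.4% to 92.1% for SLC2A1 and PKM, and 21.6% to 60.5% for HK1, HK2 and PFKP. The genes that shared these reads were not traced.

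HK1, the broadly expressed hexokinase (chromosome 10, 69269984 to 69401884, plus strand), ranged from 0 to 541 CPM in EC and from 0 to 457 CPM in TB. Its means were 120 ± 155 CPM in EC and 117 ± 118 CPM in TB, which differ by much less than the spread between cells. The medians were not alike, at 43.8 CPM in EC and 91.8 CPM in TB, and the log2 ratio of the medians was -1.05, past 2-fold toward TB. The SD divided by the mean was 1.30 in EC and 1.01 in TB, so EC held more low cells beside a few high ones. HK2, the inducible hexokinase (chromosome 2, 74834127 to 74893359, plus strand), ranged from 0.556 to 441 CPM in EC, with a median of 64.0 CPM. In TB it ranged from 0 to 136 CPM, with a median of 3.81 CPM. HK2 in 10 EC cells was above the highest TB cell, and 4 TB cells were above the EC median. The means of 95.9 ± 106 CPM and 20.9 ± 34.8 CPM differed 4.59-fold.

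PFKP, 1 of the 3 phosphofructokinase genes, which catalyse the committed step (chromosome 10, 3066333 to 3137718, plus strand), went the other way. It ranged from 0 to 154 CPM in EC, with a median of 2.97 CPM, and from 0.336 to 380 CPM in TB, with a median of 97.6 CPM. In 16 TB cells it was above the highest EC cell, and 1 EC cell was above the TB median. The means were 14.3 ± 28.8 CPM in EC and 117 ± 112 CPM in TB, so TB was 8.18-fold higher. The EC value rests on 1076 counts summed over the 38 cells, with an exact 95% Poisson interval of 1013 to 1142, and the HK2 value in TB on 1691 counts, with an interval of 1611 to 1774. Such intervals cover counting error only. For the other members the half-width of the interval in either type was between 0.303% and 2.24% of the sum, well below the spread between cells.

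The enzymes of the lower part of the pathway were all higher in EC. ALDOA, the aldolase that cleaves fructose 1,6-bisphosphate (chromosome 16, 30064164 to 30070457, plus strand), ranged from 526 to 5703 CPM in EC, with a median of 2414 CPM, and from 20.2 to 2642 CPM in TB, with a median of 714 CPM. Its means were 2389 ± 1037 CPM and 750 ± 459 CPM, 3.19-fold apart, and 17 EC cells were above the highest TB cell. PGK1, the kinase of the first ATP-forming step (chromosome X, 77910739 to 78129295, plus strand), ranged from 166 to 3108 CPM in EC, with a median of 1033 CPM, and from 25.3 to 1094 CPM in TB, with a median of 263 CPM. EC was 3.60-fold higher, at 1140 ± 640 CPM against 316 ± 204 CPM, and 18 EC cells exceeded every TB cell.

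ENO1, the enolase of most tissues (chromosome 1, 8861000 to 8879190, minus strand), ranged from 355 to 11177 CPM in EC, with a median of 4969 CPM, and from 63.3 to 4945 CPM in TB, with a median of 636 CPM. The highest TB cell was just below the EC median, and 19 EC cells were above it. At 5188 ± 2771 CPM in EC and 967 ± 948 CPM in TB, the ratio was 5.37-fold. PKM, the pyruvate kinase that forms pyruvate and ATP (chromosome 15, 72199029 to 72231819, minus strand), ranged from 44.2 to 1018 CPM in EC, with a median of 328 CPM, and from 5.66 to 668 CPM in TB, with a median of 153 CPM. This was the smallest of the 8 ratios, 2.22-fold, with means of 373 ± 219 CPM and 168 ± 128 CPM, and 4 EC cells were above the highest TB cell. Counts per gene do not separate its splice forms.

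LDHA, the lactate dehydrogenase subunit that favours lactate (chromosome 11, 18394560 to 18408425, plus strand), had the largest ratio of the 10. Its level ranged from 306 to 5738 CPM in EC, with a median of 1675 CPM, and from 3.30 to 1381 CPM in TB, with a median of 93.1 CPM. The types overlapped in part: 23 EC cells were above the highest TB cell, and 36 of the 48 TB cells were below the lowest EC cell. The means of 2135 ± 1462 CPM in EC and 228 ± 296 CPM in TB differed 9.38-fold, on the log2 scale by 3.22.

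PKM was the member nearest to the 2-fold limit. The passing cells of EQ-Vary gave 8 members higher in EC and 1 in TB. There, 16.4% and 20.6% of 8849 genes were past 2-fold in the same directions. EQ-75% gave 7 and 1, where the shares were 15.7% and 21.4% of 8744 genes. The member lost in EQ-75% was PKM, with a log2 ratio of 0.97. Over all passing cells the PFKP ratio moved most, from 8.18-fold toward TB in EQ to 11.7-fold in EQ-75%. The passing cells were not all the same, and 37 EC and 47 TB cells passed in both. In these cells PFKP was at 10.6 CPM in EC and 120 CPM in TB in EQ. In EQ-75% it was at 9.99 and 113 CPM there, so its ratio hardly moved. PKM in EQ-75% was at 324 CPM in EC and 159 CPM in TB in these cells. The LDHA log2 ratio was 3.18 in EQ-Vary and 3.23 in EQ-75%.

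**Figure D2:**
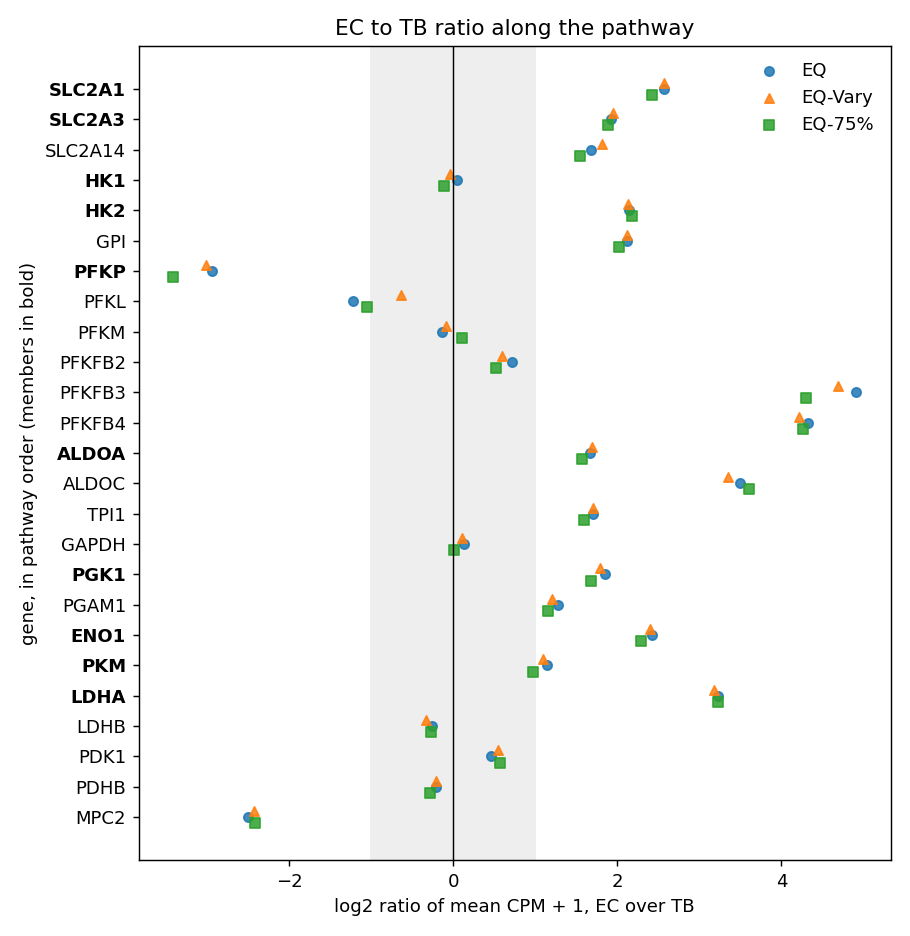
Log2 ratio of mean CPM + 1, EC over TB, for the members (bold) and related genes with a mean of at least 10 CPM, in pathway order and in 3 experiments that share the same cells. The grey band marks less than 2-fold. LDHA lies furthest right among the members at 3.22 in EQ and PFKP furthest left at -2.95, and GAPDH and LDHB lie inside the band.

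The counts over other lists are read against the same shares of all 8871 genes, 16.3% toward EC and 20.7% toward TB, and a list of a few genes is counted coarsely. The other glycolytic enzymes were mixed. Of 20 in the list, 8 reached a mean of 10 CPM, of which 4 were at least 2-fold higher in EC and 1 in TB, with a median log2 ratio of 0.70. TPI1, the triose isomerase, had 3281 CPM in EC and 1003 CPM in TB (log2 1.71), and GPI, which converts glucose 6-phosphate, had 862 and 198 CPM (log2 2.12). The mutase PGAM1 (717 and 296 CPM, log2 1.27) and the aldolase ALDOC (96.3 and 7.61 CPM, log2 3.50) completed the 4. GAPDH, the dehydrogenase between aldolase and PGK1, differed little, at 6216 ± 2021 CPM in EC and 5676 ± 1973 CPM in TB. LDHB, the subunit that favours pyruvate, was also under 2-fold, at 768 and 923 CPM. The liver-type phosphofructokinase PFKL was at 18.3 CPM in EC and 44 CPM in TB, a log2 ratio of -1.22 in EQ but -0.64 in EQ-Vary. Members and these enzymes and transporters together made 24 genes that reached 10 CPM, with 14 higher in EC, 4 in TB and a median log2 ratio of 1.35.

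Genes that control the flux were few. Of 5 that reached 10 CPM, 2 were at least 2-fold higher in EC, where 16.3% of all genes were, and 0 in TB. These were PFKFB3, at 30.8 CPM in EC and 0.0539 CPM in TB, and PFKFB4, at 78.9 and 2.98 CPM, both of which make fructose 2,6-bisphosphate, the activator of phosphofructokinase. PFKFB3 had at least 1 count in 32 of 38 EC cells and in 2 of 48 TB cells, and PFKFB4 in 31 EC and 17 TB cells. TIGAR, a phosphatase that lowers this activator, differed by less than 2-fold, at 117 CPM in EC and 74.6 CPM in TB.

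Among the other transporters, 6 of 9 reached 10 CPM, with 2 higher in EC, 2 in TB and a median log2 ratio of -0.30, beside 16.3% and 20.7% of all genes. SLC2A14 was one of the 2 in EC, and it is also in the count of members, enzymes and transporters above. Of its values above 0, 97.1% in EC and 100% in TB were not whole. How far its level is made of divided SLC2A3 reads was not tested. The other was SLC2A4, the insulin-responsive transporter, at 17.1 and 5.74 CPM. The log2 ratio of SLC2A4 was 1.43 in EQ and 0.91, under 2-fold, in EQ-75%. SLC2A8 (0.302 CPM in EC and 33 CPM in TB) and SLC2A12 (0.0212 and 23.7 CPM) were higher in TB. SLC2A12 had at least 1 count in 21 of 48 TB cells and 2 EC cells.

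In the pentose phosphate pathway, which draws on glucose 6-phosphate for NADPH and ribose, 4 of 6 genes were at least 2-fold higher in TB, where 20.7% of all genes were, and 0 in EC, with a median log2 ratio of -1.22. They were PGD (55.0 CPM in EC and 217 CPM in TB), PGLS (9.28 and 47.7 CPM), TKT (62.2 and 167 CPM) and TALDO1 (139 and 283 CPM), the last of which was under 2-fold in EQ-Vary, at a log2 ratio of -0.97. Of 6 genes for the fate of lactate and pyruvate, 0 were higher in EC and 1 in TB, with a median log2 ratio of 0.02. This was MPC2, a subunit of the mitochondrial pyruvate carrier, at 46.6 CPM in EC and 268 CPM in TB. The highest of this list were PDHB, a pyruvate dehydrogenase subunit (236 and 274 CPM), and PDK1, a kinase that inhibits that enzyme (223 and 162 CPM). In the tricarboxylic acid cycle, 2 of 15 genes, the dehydrogenase subunit SDHA (52.2 and 122 CPM) and the fumarase FH (32.8 and 70.2 CPM), were higher in TB and 0 in EC, a smaller share than the 20.7% and 16.3% of all genes, with a median log2 ratio of -0.21. FH was under 2-fold in EQ-75%, at a log2 ratio of -0.73. The highest of this list were MDH2 (135 and 184 CPM) and SUCLA2 (151 and 151 CPM). Gluconeogenesis had 2 genes that reached 10 CPM, G6PC3 (42 and 58.7 CPM) and PCK2 (31 and 18.6 CPM), neither past 2-fold, with a median log2 ratio of 0.12.

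Glycolytic genes are known targets of hypoxia-inducible factors, so these lists were also counted. Outside glycolysis, 7 of 13 hypoxia targets were at least 2-fold higher in EC, where 16.3% of all genes were, and 0 in TB, with a median log2 ratio of 1.10. They were the oxygen sensor EGLN3 (81.8 CPM in EC and 0.398 CPM in TB), the mitophagy receptors BNIP3 (307 and 93.0 CPM) and BNIP3L (435 and 150 CPM), the collagen hydroxylase P4HA2 (121 and 21.3 CPM), ANKRD37 (40.3 and 6.69 CPM), the secreted protein ANGPTL4 (23.1 and 0.259 CPM) and MXI1 (58.5 and 26.9 CPM). Among the 8 factors and their regulators, HIF3A was higher in EC (209 and 23.3 CPM), EPAS1, also called HIF2A, was higher in TB (21.6 and 725 CPM), and the median log2 ratio was 0.21. HIF1A was at 508 CPM in EC and 441 CPM in TB. Oxygen was not recorded in the labels, and factor activity was not measured. Of 10 mitosis genes, 4 were at least 2-fold higher in EC by mean and 0 in TB, beside 16.3% and 20.7% of all genes. Their median log2 ratio was 0.97, and cell sums ran from 2.78 to 8365 CPM in EC and from 3.00 to 3050 CPM in TB. The median cell sum was lower in EC, at 57.9 CPM, than in TB, at 131 CPM, so the means rest on a few high cells. The part of mitosis in the differences was not tested.

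Detection, at least 1 rounded count in a cell, separated the types for HK2 and PFKP only. Of the members, 8 were detected in every EC cell and 8 in every TB cell, and HK1 was missed in 1 cell of each type. PFKP was detected in 29 of 38 EC cells (76.3%, exact 95% binomial interval 59.8% to 88.6%) and in all TB cells. HK2 was detected in 37 of 48 TB cells (77.1%, interval 62.7% to 88.0%) and in all EC cells. With at least 5 counts required, PFKP was left in 18 EC and 41 TB cells and HK2 in 33 EC and 25 TB cells. After every library was thinned to 250000 counts, PFKP was found in 57.9% of EC and 85.4% of TB cells, and HK2 in 86.8% of EC and 56.3% of TB cells.

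Defining markers of one cell type were also counted at low levels in the other. KDR, an endothelial receptor, had 0.267% of its EC level in TB and was detected in all 48 TB cells, and VTCN1, a trophoblast gene, had 0.319% of its TB level in EC and was detected in all 38 EC cells. Over the 12 endothelial markers past 2-fold, TB held 0.0819% to 2.94% of the EC level, with a median of 0.274%. Over the 8 trophoblast markers past 2-fold, EC held 0.133% to 30.9% of the TB level, with a median of 4.07%, and KRT8, KRT18 and TFAP2A were each above 10%. HK2 in TB was at 21.8% of its EC level, above all 12 endothelial markers. PFKP in EC was at 12.2% of its TB level, inside the range of these 8 trophoblast markers. GATA3 and GATA2, which were under 2-fold, are not in that range. In single TB cells other members were low too, such as LDHA at 3.30 CPM and SLC2A1 at 1.98 CPM. Their EC means were 2135 and 468 CPM, so these lowest values are shares inside the range of the endothelial markers. Detection in every TB cell does not by itself show that every TB cell expressed them. How much of these low levels came from reads of other cells was not tested.

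Levels of different genes were compared per kb of the canonical transcript. In EC the order was ENO1 (2913 ± 1556 CPM per kb), ALDOA (1457 ± 633), LDHA (953 ± 652), SLC2A3 (832 ± 419), PGK1 (237 ± 133), PKM (162 ± 95), SLC2A1 (138 ± 130), HK1 (33.3 ± 43.1), HK2 (17.0 ± 18.9) and PFKP (5.46 ± 11). Between neighbours in this order, the gap was wider than both SDs only from SLC2A3 to PGK1. In TB, ENO1 (543 ± 532 CPM per kb), ALDOA (457 ± 280) and SLC2A3 (220 ± 201) led. They were followed by LDHA (102 ± 132), PKM (72.9 ± 55.7), PGK1 (65.8 ± 42.5), PFKP (44.7 ± 42.6), HK1 (32.4 ± 32.7), SLC2A1 (23.1 ± 25.6) and HK2 (3.72 ± 6.19). In TB the larger SD of each neighbouring pair was wider than the gap between them. All members were measured in the same cells, and these SDs between cells ignore that pairing. They therefore cannot show whether neighbours keep their order within cells, in EC or in TB, which was not tested. PFKP was last in EC and seventh of the 10 in TB, next to HK1, and by merged exon length it was below HK1 in TB (15.1 against 17.0 CPM per kb).

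Ratios between related genes within a cell do not depend on the scaling of that cell. The per-length share of LDHA in the sum of LDHA and LDHB ranged from 21.5% to 94.8% in EC cells, with a median of 60.5%, and from 0.0844% to 45.1% in TB cells, with a median of 7.90%. LDHA was the larger part in 26 of 38 EC cells, and LDHB was the larger part in every TB cell. The share of HK2 in the sum of HK1 and HK2 had a median of 50.9% in EC and 5.72% in TB, but spanned 0.278% to 100% in EC and 0% to 100% in TB. The share of PFKP among PFKP, PFKL and PFKM had a median of 21.6% in the 36 EC cells with any count and 69.7% in TB. It spanned 0% to 100% in EC and 0.241% to 100% in TB, and was over 50% in 12 EC and 29 TB cells. The sum of these 3 genes was 24.7 ± 30.8 CPM per kb in EC and 74.2 ± 58.4 in TB, so the other forms did not make up the EC level. SLC2A1 was a small part of the pair with SLC2A3 in both types, with medians of 9.58% in EC and 9.35% in TB, and ALDOA was nearly all of ALDOA and ALDOC, with medians of 98.1% and 100%. These families were chosen after the levels had been seen.

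**Figure D3:**
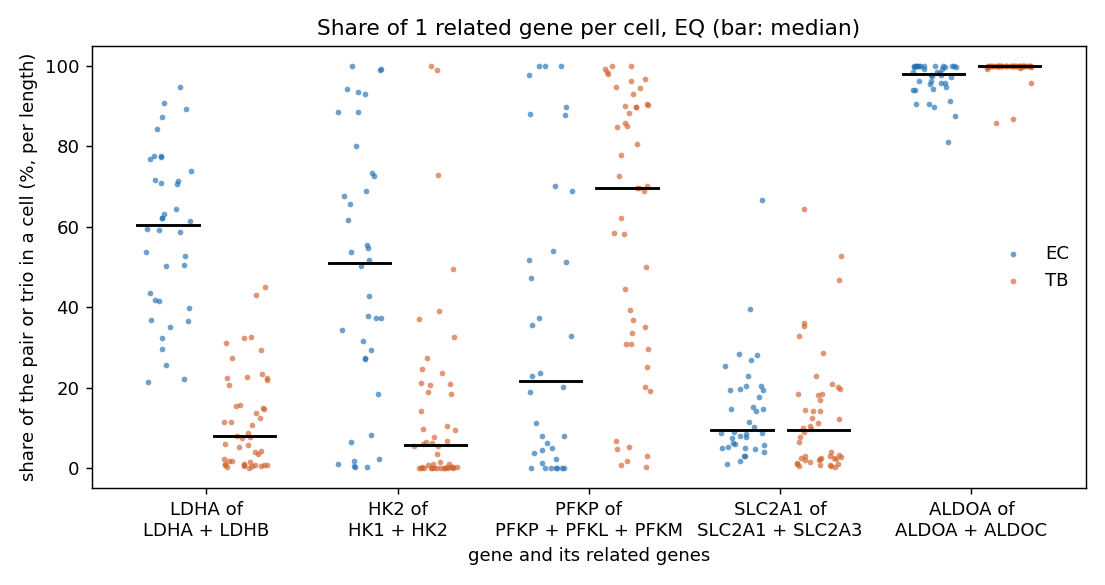
Share of 1 gene in the per-length sum with its related genes, in percent, in each passing EQ cell of EC (blue) and TB (orange), with a black bar at the median. LDHA holds a median of 60.5% in EC and 7.90% in TB. The HK2 share in EC and the PFKP share in both types spread over nearly the whole range.

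Between cells of 1 type, the closest pairs of members were among ALDOA, ENO1, PKM and LDHA. Spearman correlations of log2(CPM + 1) were computed for the 45 pairs of members, and the cells share library preparation and capture, so they are given as descriptions. In EC, 5 of 45 pairs had a correlation of at least 0.5, where 0.404% of all pairs of the 8871 genes did, and in TB 1 of 45 did, where 0.445% of all pairs did. The EC pairs were ALDOA with ENO1 (0.66), ENO1 with PKM (0.61), ENO1 with LDHA (0.57), ALDOA with LDHA (0.50) and ALDOA with PKM (0.50), all among the same 4 enzymes. The remaining pair of these, PKM with LDHA, was lower at 0.31, and pairs with other members came between, namely HK2 with LDHA (0.49), ALDOA with PGK1 (0.48), SLC2A3 with ALDOA (0.43) and PGK1 with ENO1 (0.39). Which EC pairs reached 0.5 differed between experiments, with 4 such pairs in EQ-Vary and 5 in EQ-75%. PKM with LDHA was at 0.30 in EQ-Vary but 0.54 in EQ-75%, and ALDOA with PKM at 0.44 and 0.43. In TB in EQ the highest were ALDOA with LDHA (0.52), ENO1 with LDHA (0.48), ALDOA with PKM (0.47) and ENO1 with PKM (0.46). The lowest were SLC2A1 with PKM in EC (-0.25) and HK1 with ENO1 in TB (-0.32). The median over the 45 pairs was 0.167 in EC and 0.173 in TB, and over all pairs of genes 0.0243 and 0.0145. Most pairs were therefore weakly related.

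**Figure D4:**
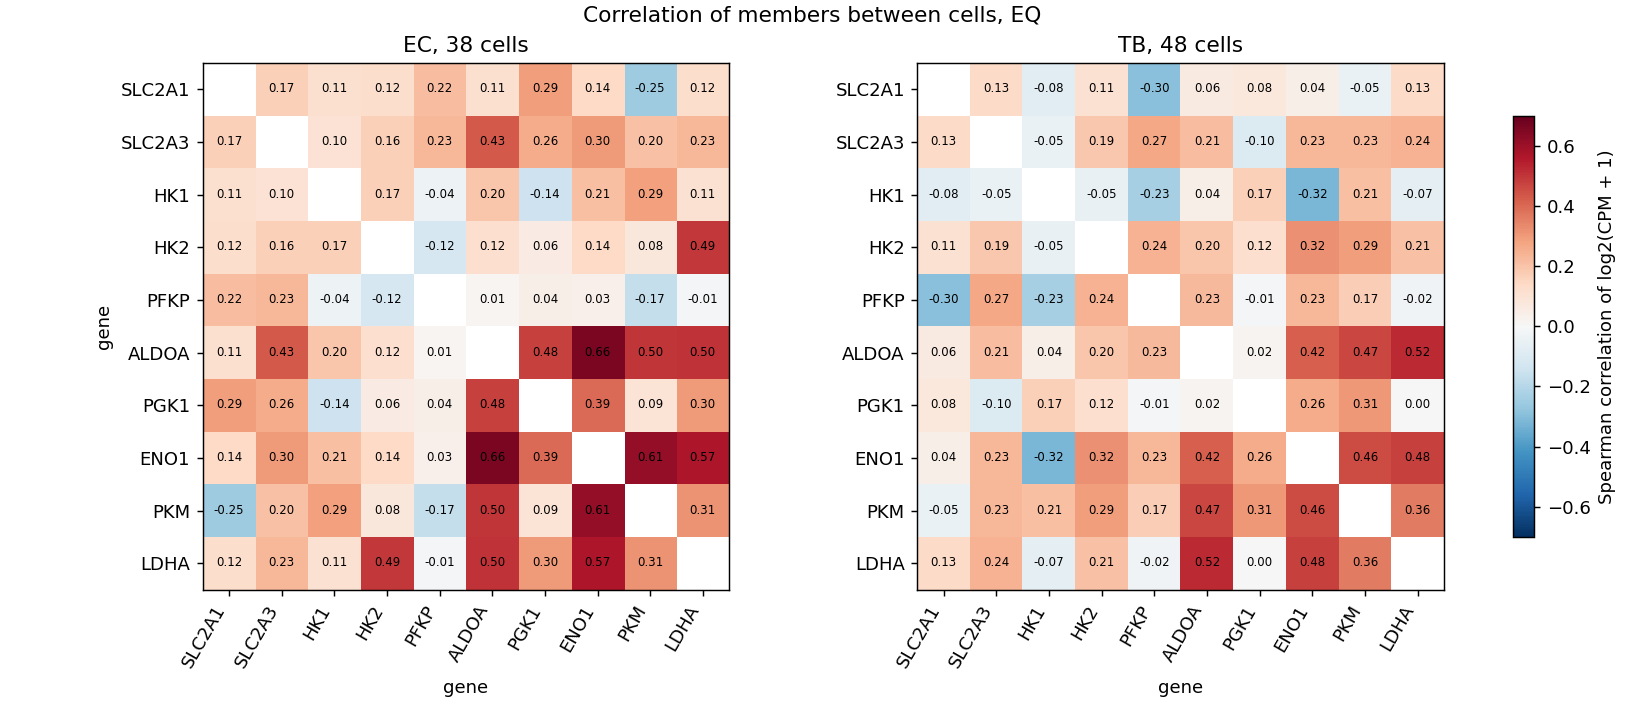
Spearman correlation of log2(CPM + 1) between each pair of members across 38 EC cells (left) and 48 TB cells (right) of EQ, red for positive and blue for negative. The darkest cells are among ALDOA, ENO1, PKM and LDHA in both types, up to 0.66 in EC and 0.52 in TB, with PKM and LDHA at 0.31 in EC, and the rows of HK1, PFKP and SLC2A1 are pale or mixed in sign.

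Each member was also set against the mean standardized level of the other 9. In EC, ALDOA (0.67), ENO1 (0.66) and LDHA (0.58) followed the others most closely and PFKP (0.13) least. In TB, PKM (0.63), ALDOA (0.54) and ENO1 (0.48) did, while SLC2A1 (0.0083) and HK1 (-0.014) did not follow them. Depth touched single genes: in EC the correlation with total count was 0.447 for ALDOA and 0.386 for PKM, and in TB 0.393 for HK1. The mean over all 10 members had a correlation with total count of 0.165 in EC and 0.120 in TB, and with the number of genes detected of 0.0778 and 0.313.

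Genes outside the members that followed this mean in both types were led by the same pathway. Of 8860 genes, ranked by the smaller of their EC and TB correlations, TPI1 (0.60 in EC and 0.55 in TB) and PGAM1 (0.47 and 0.48) came first, both of them glycolytic. EIF4EBP1 (0.51 and 0.42), an inhibitor of translation initiation, CDK5RAP2 (0.40 and 0.42), a centrosome protein, and WDR18 (0.51 and 0.40) followed. The last of these was at a mean of 5.31 CPM in EC. As a list, the other glycolytic enzymes had a correlation of 0.662 in EC and 0.667 in TB with the member mean, the pentose phosphate genes 0.401 and 0.560, and the tricarboxylic acid cycle genes 0.384 and 0.401. The mitosis genes had -0.278 and 0.238, the endothelial genes 0.261 and -0.220, the trophoblast genes -0.0257 and 0.239, the mesenchymal genes -0.192 and 0.199, and the pluripotency genes -0.175 and 0.00217.

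The hypoxia targets outside glycolysis had a correlation of 0.642 with the members across EC cells and of -0.253 across TB cells. In EC the single targets closest to the members were INSIG2 (0.67) and BNIP3L (0.63), and the others ranged from -0.02 (ANGPTL4) to 0.41 (P4HA2). In TB single targets ranged from -0.25 (INSIG2) to 0.40 (ANGPTL4). The RNA of HIF1A itself was at -0.28 in EC and 0.01 in TB. With total count and genes detected regressed out, the values were 0.617 in EC and -0.362 in TB. The passing cells of the other experiments, most of them the same, gave 0.648 and -0.279 in EQ-Vary and 0.628 and -0.207 in EQ-75%. The difference between EC and TB was not tested, since each type is 1 sample.

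EQ-75%, which repeated the EQ procedure, shows how much of this spread came from library preparation and sequencing after the cDNA was made. EQ-Vary is described as differing from EQ in its pooling, and whether its libraries were prepared anew is not stated. Over the 10 members, the Spearman correlation between the EQ and EQ-Vary values of the same cells was 0.911 to 0.998, and between EQ and EQ-75% it was 0.850 to 0.992, with the lowest value for PFKP in EC in both. For EQ-75%, the SD of log2(CPM + 1) between EQ cells was 2.13 to 9.86 times the SD of the within-cell difference. For EQ-Vary it was 3.53 to 20.3 times. For SLC2A3 in EC the SD between cells was 0.66 and the SD of EQ-75% minus EQ in the same cells was 0.08. For PFKP in EC, these were 2.00 and 0.69. Spread that arose before or during cDNA amplification is common to all 3 experiments and is not measured by these differences.

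**Figure D5:**
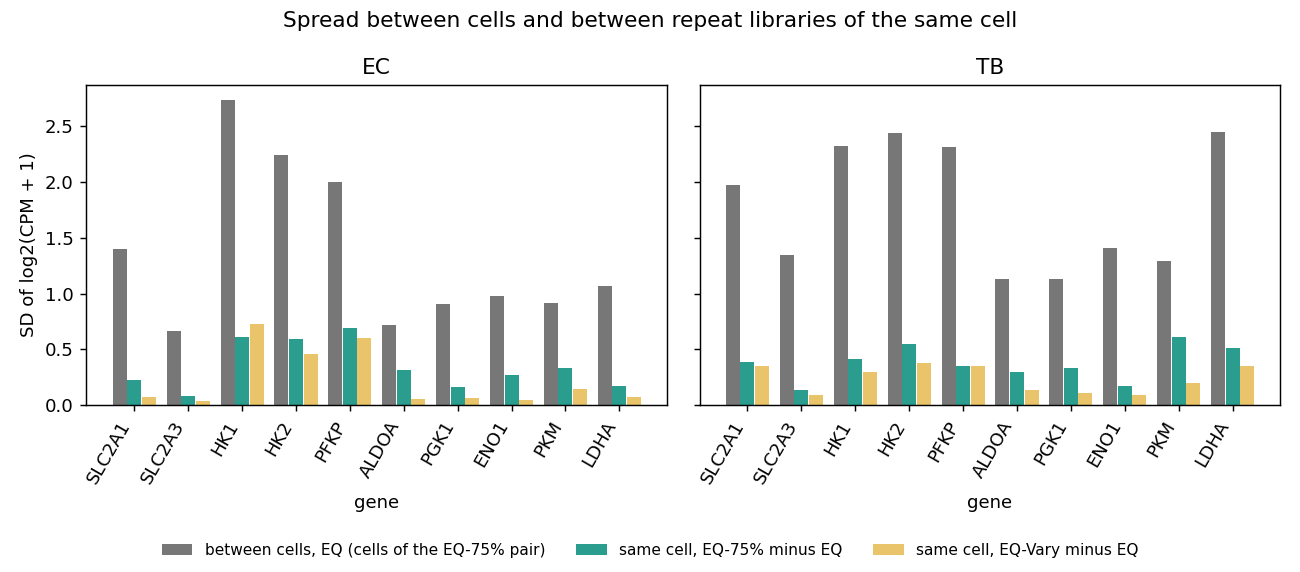
SD of log2(CPM + 1) between EQ cells (grey) and SD of the within-cell difference of EQ-75% minus EQ (green) and EQ-Vary minus EQ (yellow), for each member in EC (left) and TB (right). The grey bar is the tallest for every member in both types, and in EC the within-cell differences spread most for HK1, HK2 and PFKP.

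Within cells, SLC2A1 was the member that shifted most often in 1 direction over both types. In EQ-75% it was lower than in EQ in 35 of 37 EC cells, with a median log2 difference of -0.23, and in 35 of 47 TB cells, with a median of -0.15. LDHA was higher in 30 of 37 EC cells, by a median of 0.06, and in 24 of 47 TB cells. The median over the members of the median within-cell difference of EQ-75% minus EQ was -0.08 in EC and -0.07 in TB, against -0.01 and 0 over all 8871 genes. In EQ-Vary, the median over the members was -0.0051 in EC and -0.0074 in TB. These shifts were small beside the differences between EC and TB, where SLC2A1 differed by 2.57 on the log2 scale in EQ and 2.42 in EQ-75%.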

How the data were processed

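The authors deposited expected counts of 17492 protein-coding genes in 288 libraries, in 3 tables without normalization. Per the methods, reads cut to 51 bp were aligned by Bowtie 1.2.3, with 2 mismatches allowed, to protein-coding genes of Ensembl on GRCh38. RSEM 1.2.31 gave the counts and divides reads that fit more than 1 gene. The submitters' processing notes also name CASAVA 1.8.2. Unused sample columns numbered 0. Libraries of the unEQ experiment were not analysed here.

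Expected counts were rounded and scaled to CPM. Cells passed with a log10 total count of at least 5.4 and at most 31% of counts in the 50 most abundant genes, the limits of the methods. This left 38 EC and 48 TB cells in EQ, 38 and 46 in EQ-Vary, and 39 and 50 in EQ-75%. Total counts of passing cells ranged from 291354 to 6345138 over the experiments. For a gene with only 1 count in a cell, the counting error is as large as that count. In the initial experiment on these cells, the methods removed doublets and dead cells by image. Genes with a mean of at least 10 CPM over both types, weighted equally, entered counts past 2-fold. The log2 ratio was taken between means with 1 CPM added to each. With 1 sample per cell type, 0 p-values were computed and counts past 2-fold are read against the share over all genes. Same-numbered cells came from the same cDNA, as the paper states. In the cells that passed in both experiments, the correlation of same-numbered libraries was 0.850 or more for every member, so differences between experiments were taken within cells.

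All 10 members were named. Of the other lists, the rule limits values to genes past 2-fold and to the 2 highest in a list, with SLC2A14 and the 5 genes closest to the member mean. Marker and mitosis lists are given mainly by counts and sums, so not every such gene is printed. Other genes were named for contrast after their values were seen. The members and lists were chosen with earlier results of these data known. ENO2, SLC16A1, SLC16A3, PDHA1, MPC1, G6PC1, P4HA1 and ZFP42 were on the lists and not analysed here. Of the members, 9 matched a RefSeq promoter window. SLC2A3 had no entry.

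Ratios and correlations were run on simulated data for EC against TB in EQ (8801 genes), where 100% of 200 changed genes were recovered. The planted changes were well past 2-fold and lay in genes of at least 50 CPM. Recovery of smaller changes or of lower genes was therefore not tested, and false calls are not given here. Genes with a planted shared factor had a median correlation of 0.744, and other genes 0.0082. The tools were pandas 2.3.3, numpy 2.4.6, matplotlib 3.10.9 and scipy 1.17.1 in Python 3.11.15, and edgeR 4.0.16 in R 4.3.3 for scaling factors of the rounded expected counts. Gene coordinates and lengths were from GENCODE 44. Alternatives covered the scaling, filters, threshold, pseudocount, summary over cells, depth, gene length and experiment.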

Additional observations from a re-analysis of the deposited data

How the results depend on the processing

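Of the member ratios, 9 of 10 kept their sign in every alternative run. HK1 lay between -1.05 and 0.22 on the log2 scale and PKM between 0.95 and 1.28. Taken on medians over cells, 2 members were past 2-fold toward TB, since HK1 joined PFKP. Over all genes, 2302 were higher in EC at 1.5-fold, 757 on medians, 2300 without the filter and 700 with a mean of at least 50 CPM. Toward TB the last 2 settings gave 3235 and 673. The EC share of all calls was 44% as reported and 31.1% on medians, and TMM factors moved the median log2 ratio of all genes from -0.03 to 0.09. In every TB cell, 5 members were detected with at least 5 counts, and 5 after thinning. With merged exon length, 6 ranks of members held in EC and 3 in TB. At 1.5-fold, the lists counted 4 flux genes, 1 lactate and pyruvate gene, 1 gluconeogenesis gene and 3 hypoxia factors toward EC, and 6 tricarboxylic acid cycle genes and 2 hypoxia factors toward TB. Median-of-ratios factors gave 1 lactate and pyruvate gene and 1 pentose phosphate gene toward EC. EQ-Vary gave 1 lactate and pyruvate gene toward EC and 0 other glycolytic enzymes toward TB, and EQ-75% gave 1 transporter toward EC and 1 hypoxia target toward TB. The cause was not tested. Without the replicate block of same-numbered cells, on means over cells, the median over members of EQ-75% minus EQ was -0.16 in EC and -0.10 in TB, and of EQ-Vary minus EQ -0.0036 and 0.03. Means over the same cells, added after seeing the data, gave -0.16, -0.10, -0.0036 and -0.02, so for EQ-75% the move from the medians of -0.08 and -0.07 came with the mean and not with the block.

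With 1 culture per cell type named, differences between EC and TB describe these cells. Depth limits PFKP in EC and HK2 in TB, where many cells held under 5 counts, and the other members less so.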
